A study of Mus musculus with 12 samples.

Results

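The genes described here encode proteases that cut the extracellular matrix and the inhibitors that hold them in check. They were chosen by name from the table of FPKM values (reads on a gene divided by its length and by a scaling factor of the library): the metalloproteases Mmp2, Mmp3 and Mmp14, the inhibitors Timp1, Timp2 and Timp3, the proteases Adamts1 and Adamts5, and the plasminogen activator Plau. All 9 were found among the 54345 genes listed. The cells were H9c2(2-1), a line derived from embryonic heart muscle, labelled as wild-type myoblasts and grown in multiwell plates. Cells were left untreated (Unt) or received doxorubicin (DOX), doxorubicin with dexrazoxane (D_DXZ), or doxorubicin with magnesium hexacyanoferrate nanocatalysts (D_MgHCF), for 6 h in each case. Doxorubicin is an anthracycline used in chemotherapy that injures heart muscle, dexrazoxane is an iron-binding drug given against that injury, and the nanocatalysts were designed to capture ferrous iron and remove radicals. All 3 treated groups thus received doxorubicin, and neither protective agent was given alone. Poly(A) RNA was sequenced from 3 libraries per group, 12 in all. Nothing in the sources used here says whether the libraries of a group came from separate cultures, so the p-values measure the spread between these libraries only.

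Matrix turnover depends on the balance between proteases and inhibitors. MMP14 sits in the plasma membrane and, with TIMP2 as a bridge, activates the secreted gelatinase MMP2. At higher amounts TIMP2 blocks MMP14, whereas TIMP1 inhibits most secreted metalloproteases but MMP14 only weakly. TIMP3 stays bound to the matrix and also blocks ADAMTS and ADAM proteases. ADAMTS1 and ADAMTS5 cleave the large proteoglycans versican and aggrecan. Urokinase, the product of Plau, turns plasminogen into plasmin, which degrades matrix and activates metalloproteases. In the heart these enzymes are best known from the remodelling of the interstitial matrix after injury.

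Each library held between 16626514 and 19365119 reads on genes, recovered from the FPKM values and gene lengths. The authors' scaling differed between groups. The summed FPKM was 216899 to 230292 in the Unt libraries and 220276 to 290996 in D_MgHCF, but 498756 to 627769 in DOX and 447052 to 549680 in D_DXZ, so that the same read stood for more FPKM in these last groups. Libraries of a group correlated closely across genes in Unt, DOX and D_DXZ (lowest Pearson r 0.994, 0.99 and 0.989), and less closely in D_MgHCF, where r was 0.942 to 0.984. The reads were aligned to the mouse genome, and the line is known as a rat line, so levels compared between genes also carry how well each gene's reads aligned. Of the 7 myoblast markers examined none reached a mean of 1 FPKM, Myod1 being at 0.126 or less in every library. Of 6 cardiac markers only Gata4 did (2.17 to 25.5), and of 6 fibroblast markers only the collagen genes Col1a1 (18.8 to 79.1) and Col1a2 (2.73 to 42.3) did. The summed FPKM of the fibroblast markers moved with treatment: Unt libraries had 45.1 to 51.1, DOX libraries 97.4 to 122, D_DXZ libraries 76.7 to 103 and D_MgHCF libraries 22 to 39.6. The summed cardiac markers ran the other way, at 9.80 to 11 for Unt, 3.14 to 5.84 for DOX, 3.04 to 4.29 for D_DXZ and 14.9 to 26.4 for D_MgHCF. Epithelial and endothelial markers summed to at most 1.63 and 1.08 FPKM, and the immune list to at most 5.41, nearly all of it Cd68 (0.885 to 4.77). These sums rest mainly on the collagen genes and on Gata4, and the summed FPKM of all genes differed between the groups as given above. The part of these shifts in the results below was not tested. In bulk RNA, fewer cells of a type and less RNA per cell cannot be told apart.

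The members lie on 7 mouse chromosomes (GRCm38). Adamts1 (chromosome 16, 85793827 to 85803113) and Adamts5 (chromosome 16, 85858170 to 85901125) are neighbours on the minus strand, 55056 bases apart. Timp1 (chromosome X, 20870166 to 20874735) lies wholly within Syn1 on the opposite strand, and Timp3 (chromosome 10, 86300372 to 86349506) wholly within Syn3 on the opposite strand. These are overlaps of whole gene spans, introns included. The library kit is not stated to keep strand, so reads on exon bases shared by such a pair cannot be separated. Syn1 was at 0.0454 to 1.21 FPKM and Syn3 at no more than 0.04. An annotated Syn3 transcript also shares 1733 identical bases with Timp3. Timp2 (chromosome 11, 118301069 to 118355740) shares 10141 bases with Cep295nl, listed at 0.365 to 1.80 FPKM. Mmp14 (chromosome 14, 54431612 to 54445364), Plau (chromosome 14, 20836660 to 20843385) and Mmp2 (chromosome 8, 92827291 to 92853420) overlap no other listed gene. Mmp3 (chromosome 9, 7445822 to 7455975) matches Gm15242 at 95.4% identity over 284 bases.

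RefSeq promoter windows (GRCm38.p6, from 250 bases before to 50 after the start) were held for 6 of the 9 members, and not for Mmp2, Adamts5 or Plau. These are mouse sequences, and as the line is known as a rat line, those of the cells may differ. The last 100 bases before the start are shown for Timp1 and Mmp14, which were highest in the DOX libraries, for Adamts1, which was not, and for Mmp3, which was hardly detected, so that their start regions can be read side by side. The same stretch of Timp2 and Timp3 reaches into annotated exons and is not printed. Capitals mark matches, on either strand, to 4 motifs: AP-1 (TGANTCA), PEA3/Ets (AGGAAG), the TATA box (TATAAA) and Sp1 (GGGCGG, or CCGCCC on the other strand).
Timp1 (chrX:20870066-20870165, plus strand): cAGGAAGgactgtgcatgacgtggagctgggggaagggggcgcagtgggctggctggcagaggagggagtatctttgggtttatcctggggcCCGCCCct
Mmp14 (chr14:54431498-54431597, plus strand): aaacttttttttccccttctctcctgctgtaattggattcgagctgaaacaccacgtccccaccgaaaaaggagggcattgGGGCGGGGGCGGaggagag
Adamts1 (chr16:85803114-85803213, minus strand): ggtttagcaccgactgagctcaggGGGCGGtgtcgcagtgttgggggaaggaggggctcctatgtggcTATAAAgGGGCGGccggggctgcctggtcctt
Mmp3 (chr9:7445722-7445821, plus strand): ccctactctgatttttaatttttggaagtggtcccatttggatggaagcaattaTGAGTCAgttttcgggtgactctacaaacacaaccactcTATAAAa
Sp1 letters were found in the windows of Timp1, Timp2, Timp3, Mmp14 and Adamts1, the adjoining pair in Mmp14 being printed as 1 run. TATAAA was found in Adamts1 and Mmp3, and of the 6 members only Mmp3 held an AP-1 match, 46 to 40 bases before its start. PEA3/Ets letters were found in the full windows of Timp1, Timp3, Mmp14 and Mmp3. Among the 32851 promoter windows held for the genome, 35.7% had the Sp1 letters, 35.4% PEA3/Ets, 13.6% TATAAA and 7.81% AP-1.

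Timp2 and Timp1 were the most abundant members per length in Unt, DOX and D_DXZ, and the 3 inhibitors did not move together. In D_MgHCF the libraries of Mmp14 (mean 41.8 FPKM) and Timp1 (40.5) overlapped. Timp2 stood at 93.1, 99.0 and 109 FPKM in Unt, 475, 572 and 626 in DOX, 382, 516 and 517 in D_DXZ, and 258, 173 and 190 in D_MgHCF. The 4 groups thus fell in the order DOX, D_DXZ, D_MgHCF and Unt, with overlap between DOX and D_DXZ alone. The mean rose 5.56 times with DOX (log2 difference 2.46, SE 0.19, adjusted p = 1.17e-05, limma) and 4.70 times with D_DXZ (2.21, adjusted p = 5.59e-05). With D_MgHCF it was still 2.06 times the Unt mean (1.02, adjusted p = 0.00209), and 2.70 times lower than with DOX (log2 difference -1.44, adjusted p = 0.000122). The gap between D_DXZ and DOX was not called (log2 difference -0.25, 95% interval -0.66 to 0.17).

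Timp1 responded to DOX in the same direction but ended at another place with the nanocatalysts. Its FPKM was 39.7, 45.0 and 45.4 in Unt, 166, 209 and 214 in DOX, 122, 153 and 162 in D_DXZ, and 49.0, 41.5 and 30.9 in D_MgHCF. The D_MgHCF libraries spanned the whole Unt range, and DOX lay above D_DXZ without overlap. With DOX the mean was 4.53 times the Unt mean (log2 difference 2.15, SE 0.18, adjusted p = 1.32e-05) and with D_DXZ 3.37 times (1.72, adjusted p = 8.03e-05). D_MgHCF lay 4.85 times below DOX (log2 difference -2.27, SE 0.18, adjusted p = 6.90e-06) and 3.61 times below D_DXZ (-1.84, adjusted p = 2.51e-05). Against Unt the D_MgHCF difference was -0.12 (95% interval -0.51 to 0.27, adjusted p = 0.627). Over 9 other settings of the fit it ran from -0.27 to -0.10 and stayed uncalled in 8. Rescaling each library to the same sum called it lower. D_DXZ against DOX, at -0.43, was not called (adjusted p = 0.494).

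Timp3, the matrix-bound inhibitor, followed neither. It stood at 2.68, 2.78 and 2.72 FPKM in Unt, 2.35, 2.70 and 2.90 in DOX, 1.99, 2.01 and 1.89 in D_DXZ, and 4.19, 5.04 and 4.64 in D_MgHCF. The D_MgHCF libraries lay above and the D_DXZ libraries below all others, while DOX and Unt overlapped. Timp3 was higher with D_MgHCF than with Unt (log2 difference 0.59, adjusted p = 0.00184), DOX (0.62, adjusted p = 0.000678) and D_DXZ (0.92, adjusted p = 7.00e-05, limma). It was lower with D_DXZ than with Unt (log2 difference -0.33, adjusted p = 0.0341), a call that was lost on leaving out any of the 3 Unt libraries, any of the 3 D_DXZ libraries or DOX replicate 2 (values -0.34 to -0.31). The reads behind these values differed more than the FPKM: 542 to 550 in each Unt library and 273 to 290 in each DOX library, at nearly the same FPKM.

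The make-up of the inhibitors differed between the groups. Of the summed FPKM of the 3 genes, Timp2 held 68.5% ± 0.98 in Unt (SD, n = 3), 73.7% ± 0.68 in DOX, 76.1% ± 0.75 in D_DXZ and 82.0% ± 2.80 in D_MgHCF. Timp1 held 29.6% ± 0.92, 26% ± 0.68, 23.6% ± 0.72 and 16.1% ± 2.59 in the same order. The ranges of Timp1's share did not overlap between any of the groups. Timp3's share was 1.87% ± 0.13 in Unt and 1.90% ± 0.49 in D_MgHCF, against 0.351% ± 0.012 in DOX and 0.324% ± 0.061 in D_DXZ.

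**Figure D1:**
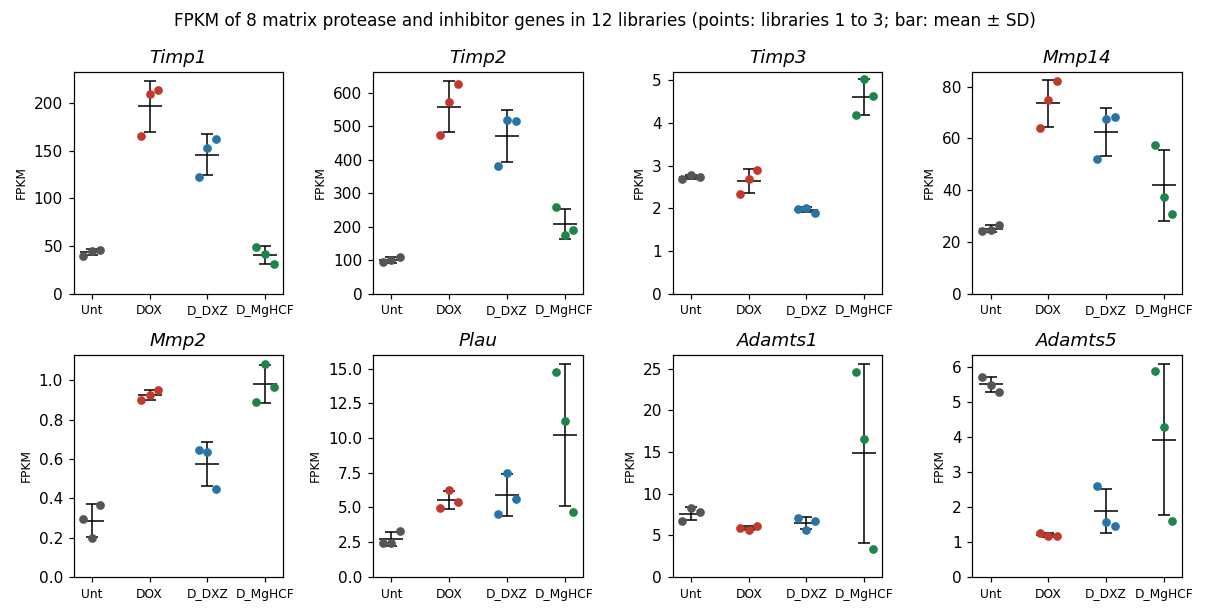
FPKM of the 8 members with reads in most libraries (vertical axis from 0, a scale of its own for each gene) in the 4 groups; points are libraries 1 to 3 and bars the mean ± SD. Timp1, Timp2 and Mmp14 are highest in DOX, Adamts5 is lowest there, and in D_MgHCF the third library of Adamts1 (3.37 FPKM), Adamts5 (1.60) and Plau (4.68) lies far below the other two.

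Mmp14, the membrane metalloprotease, was the only protease member above 25 FPKM in any library. Its FPKM was 24.1, 24.5 and 26.5 in Unt, 63.9, 74.8 and 82.1 in DOX, 51.8, 67.6 and 68.3 in D_DXZ, and 57.3, 37.4 and 30.8 in D_MgHCF. The groups again fell in the order DOX, D_DXZ, D_MgHCF and Unt, but D_MgHCF overlapped D_DXZ. With DOX the mean was 2.94 times the Unt mean (log2 difference 1.51, SE 0.20, adjusted p = 0.000160) and with D_DXZ 2.50 times (1.28, adjusted p = 0.000698). With D_MgHCF it was 1.67 times the Unt mean (0.67, adjusted p = 0.0242), a call that was lost without Unt replicate 1, Unt replicate 2 or D_MgHCF replicate 1 (0.43 without the last). D_MgHCF lay 1.76 times below DOX (log2 difference -0.84, adjusted p = 0.00575) and 1.5 times below D_DXZ (-0.61, adjusted p = 0.0305), the latter not called without D_DXZ replicate 2 or 3 or D_MgHCF replicate 2 or 3.

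Mmp2, the gelatinase that MMP14 activates, was scarce. It stood at 0.295, 0.198 and 0.364 FPKM in Unt, 0.899, 0.925 and 0.949 in DOX, 0.643, 0.634 and 0.444 in D_DXZ, and 0.890, 1.08 and 0.967 in D_MgHCF. Unt was lowest and D_DXZ intermediate, neither overlapping another group, while DOX and D_MgHCF overlapped. Behind these values were 16 to 30 reads in each Unt library and 63 to 93 in each D_MgHCF library. The mean with DOX was 3.23 times the Unt mean (log2 difference 0.58, adjusted p = 0.000627), with D_MgHCF 3.43 times (0.62, adjusted p = 0.000782) and with D_DXZ 2.01 times (0.29, adjusted p = 0.0391, limma). At levels under 1 FPKM the added 1 compresses the log2 difference, so the ratio of means is the larger figure. D_MgHCF exceeded D_DXZ (0.33, adjusted p = 0.0163) but not DOX (0.04, 95% interval -0.17 to 0.25). The D_DXZ call against Unt was lost on leaving out any of 7 libraries (each Unt library, DOX replicate 2 or 3, D_DXZ replicate 1 or 2; 0.24 to 0.33), and the D_MgHCF call against D_DXZ without D_DXZ replicate 3 (0.27). The latter was also lost with a pseudocount of 0.1 (0.69, adjusted p = 0.0683), with the 2 groups fitted alone (adjusted p = 0.118) and under quantile normalization (0.0016, adjusted p = 0.996).

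Mmp3, stromelysin-1, was listed at 0 in 10 of 12 libraries. The other two were D_DXZ replicate 3, with 2 reads and 0.0832 FPKM, and D_MgHCF replicate 2, with 3 reads and 0.0654 FPKM. A count of 0 allows up to 3 reads, which here corresponds to 0.0654 to 0.144 FPKM depending on the library, counting error only. Mmp3 did not pass the filter of reads in at least 3 libraries and was not tested, so 8 of the 9 members enter the counts below.

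Plau, urokinase, had more FPKM in every treated library than in every Unt library, on the deposited scaling. It stood at 2.40, 2.43 and 3.32 FPKM in Unt, 4.95, 6.26 and 5.41 in DOX, 4.55, 7.51 and 5.63 in D_DXZ, and 14.7, 11.3 and 4.68 in D_MgHCF. The D_MgHCF libraries were far apart, the third lying within the range of D_DXZ. The mean with D_MgHCF was 3.76 times the Unt mean (log2 difference 1.48, SE 0.32, adjusted p = 0.00501, limma). The differences of DOX (0.82, adjusted p = 0.0697) and D_DXZ (0.88, adjusted p = 0.0584) from Unt were not called. Both were called on leaving out D_MgHCF replicate 1 or 3, which enter these differences only through the shared estimate of spread (for DOX, adjusted p = 0.0376 and 0.00342). D_MgHCF against DOX was 0.66 with all libraries (adjusted p = 0.109) and 1.09 without D_MgHCF replicate 3 (adjusted p = 0.000954). D_MgHCF against D_DXZ was likewise 0.60 (adjusted p = 0.146) and 1.03 without that library (adjusted p = 0.00147).

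Adamts1 and Adamts5, neighbours in the genome and both proteoglycan-cutting enzymes, differed in how they responded to DOX. Adamts5 stood at 5.70, 5.49 and 5.29 FPKM in Unt, 1.25, 1.18 and 1.15 in DOX, 2.60, 1.57 and 1.46 in D_DXZ, and 5.88, 4.28 and 1.60 in D_MgHCF. The DOX libraries were the lowest, followed without overlap by D_DXZ, and D_MgHCF ran from within the D_DXZ range to above Unt. Adamts5 was 4.6 times lower with DOX than in Unt (log2 difference -1.57, SE 0.30, adjusted p = 0.00164) and 2.92 times lower with D_DXZ (-1.19, adjusted p = 0.00989). It was the only member called lower with DOX on the deposited scaling. D_MgHCF exceeded DOX 3.28 times (log2 difference 1.05, adjusted p = 0.0138), a call lost without D_MgHCF replicate 2 (0.95, adjusted p = 0.0507) and kept without replicate 3 (1.46, adjusted p = 7.53e-05). D_MgHCF against Unt was -0.51 (adjusted p = 0.200), and among the fits leaving out a library it was called only without D_MgHCF replicate 1 (-0.81, adjusted p = 0.0488). D_MgHCF against D_DXZ was 0.68 (adjusted p = 0.0837), and 1.09 without D_MgHCF replicate 3 (adjusted p = 0.000521).

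Adamts1 stood at 6.70, 8.26 and 7.78 FPKM in Unt, 5.90, 5.62 and 6.05 in DOX, 7.04, 5.66 and 6.71 in D_DXZ, and 24.6, 16.5 and 3.37 in D_MgHCF. DOX lay below Unt without overlap, and D_MgHCF held both the highest and the lowest libraries of all 12. No comparison of Adamts1 was called with all libraries in the main fit, on the deposited FPKM scaling. DOX against Unt was -0.32 (95% interval -1.42 to 0.78) and D_MgHCF against DOX 0.87 (adjusted p = 0.169). Both rest on a spread shared by all groups, and the SD of FPKM was 0.80 in Unt, 0.22 in DOX and 10.7 in D_MgHCF. The interval of DOX against Unt is thus not that of these 2 groups alone. This difference stayed uncalled in 7 of 9 other settings of the fit. On the deposited scaling the D_MgHCF differences turned on D_MgHCF replicate 3. Without it, Adamts1 was higher with D_MgHCF than in Unt (1.31, adjusted p = 0.000106), DOX (1.63, adjusted p = 2.05e-05) and D_DXZ (1.51, adjusted p = 3.68e-05, limma).

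Read against all genes, the members' calls were as follows. With DOX against Unt, 4 of the 8 tested members were higher (Timp1, Timp2, Mmp14 and Mmp2) and 1 lower (Adamts5), where 18.6% of the 25044 genes tested were higher and 19.9% lower. The median log2 difference was 0.70 over the members and 0.02 over genes with at least 1 FPKM in 3 libraries. With D_DXZ against Unt, the same 4 were higher, and Adamts5 and Timp3 lower, beside 15.9% of all genes higher and 18.0% lower. With D_MgHCF against Unt, 5 were higher (Mmp14, Mmp2, Plau, Timp2 and Timp3) and 0 lower, beside 24.3% and 15.7%. These comparisons share the Unt libraries.

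Between the treated groups, D_DXZ against DOX called 0 members higher or lower, and 0% of all genes in either direction, by limma after adjustment. At an unadjusted p under 0.05, 1143 genes were higher and 1245 lower. Before adjustment 3 members passed p under 0.05, all lower with D_DXZ (Mmp2, Timp1 and Timp3), and limma's voom on the recovered reads called 0 members too. D_MgHCF against DOX called 2 members higher (Timp3 and Adamts5) and 3 lower (Timp1, Timp2 and Mmp14), beside 31.4% of all genes higher and 20.1% lower. D_MgHCF against D_DXZ called 2 higher (Timp3 and Mmp2) and 3 lower (the same 3), beside 29.4% and 19.0%.

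**Figure D2:**
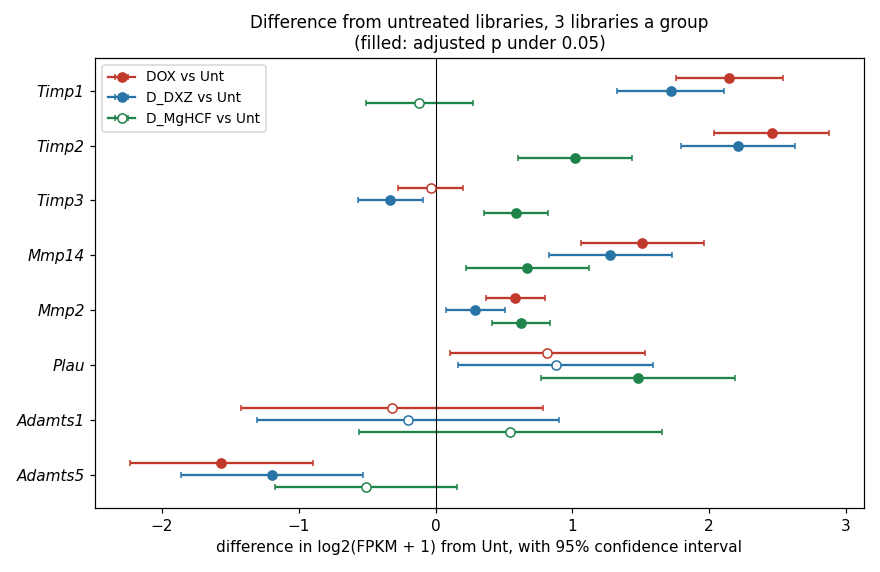
Difference of each treated group from Unt in log2(FPKM + 1) (horizontal axis) for 8 members, with 95% confidence intervals from limma, 3 libraries per group; filled points passed an adjusted p of 0.05. Timp1 is at 2.15 with DOX, 1.72 with D_DXZ and -0.12 with D_MgHCF, and Timp3 is called higher with D_MgHCF alone among these comparisons. The intervals of Adamts1 all span 0, and the intervals of each gene rest on a spread shared by all groups.

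A gene's change with DOX went with its level, and the members have to be read beside that. Of the 625 genes with a mean of 100 FPKM or more over the 12 libraries, 95.5% were called higher with DOX than in Unt, with a median log2 difference of 1.80. The median was 0.75 over the 3941 genes at 10 to 100 FPKM, and fell to -0.40 over the 6949 genes at 1 to 10 FPKM. The bands rest on the mean over all 12 libraries, those with DOX included. A gene that is high in DOX and D_DXZ can therefore enter a higher band through these groups. Timp1 averaged 43.4 FPKM in Unt, 196 in DOX and 107 over the 12 libraries. How far this shaped the trend with level was not tested. Timp2 (2.46) exceeded 94.1% of the genes in its band of 100 FPKM or more, and Timp1 (2.15) exceeded 79.0% of them. Mmp14 (1.51) exceeded 80.3% of the genes at 10 to 100 FPKM. In the band of 1 to 10 FPKM, Plau (0.82) exceeded 88.2%, Timp3 63.7%, Adamts1 53.3% and Adamts5 (-1.57) 8.71% of the genes. Mmp2 (0.58) exceeded 98.5% of the genes under 1 FPKM.

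With D_MgHCF against DOX the same bands, under the same limit, ran the other way. The median log2 difference was -1.65 at 100 FPKM or more, where 94.4% of genes were lower, -0.85 at 10 to 100 and 0.40 at 1 to 10. Timp1 (-2.27) lay above only 12.5% of the genes in its band, whereas Timp2 (-1.44) lay above 68.8% and Mmp14 (-0.84) above 50.1%, at the median of its band. Adamts5, Adamts1, Plau and Timp3 lay above 74.3%, 67.9%, 60.3% and 58.7% of the genes at 1 to 10 FPKM.

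**Figure D3:**
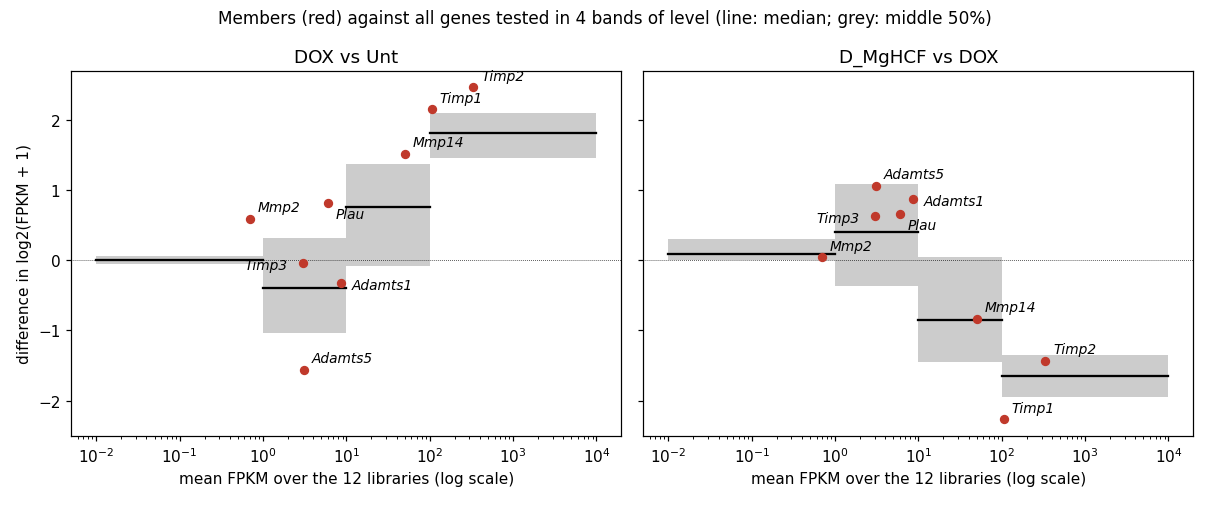
Log2 difference of 8 members (red) against their mean FPKM over the 12 libraries (log axis), for DOX against Unt and D_MgHCF against DOX; black lines and grey boxes give the median and middle 50% of all genes tested in 4 bands of level. In DOX against Unt the band medians rise from -0.40 at 1 to 10 FPKM to 1.80 at 100 or more, and all members drawn but Timp3 and Adamts1 lie outside the middle 50% of their bands, Adamts5 (-1.57) below it and the others above.

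Library scaling decided several of these calls. Rescaling each library to the same sum (TPM) moved the median log2 difference of genes with at least 1 FPKM from 0.02 to -1.18 for DOX against Unt, and from -0.02 to 1.02 for D_MgHCF against DOX. The calls over all genes moved with it. For DOX against Unt, TPM called 1111 genes higher (4.44%) and 10227 lower (40.8%), and summed reads as library sizes 2109 (8.42%) and 8787 (35.1%), in place of 18.6% and 19.9%. For D_MgHCF against DOX, TPM called 13504 higher (53.9%) and 1691 lower (6.75%), and summed reads 12826 (51.2%) and 2385 (9.52%), in place of 31.4% and 20.1%. TPM also called 913 higher and 10083 lower in D_DXZ against Unt, and 12801 and 1559 in D_MgHCF against D_DXZ. Quantile normalization called 4626 higher and 4914 lower in D_MgHCF against DOX, 4587 and 4840 against D_DXZ, and 4252 and 4627 against Unt. Of the 8 members, TPM called 2 higher and 3 lower with DOX against Unt, and 6 higher and 1 lower with D_MgHCF against DOX. Timp1 and Timp2 were still higher with DOX under this scaling (0.80 and 1.10, adjusted p = 2.40e-05 and 6.72e-06), under quantile normalization (0.82 and 0.79) and with summed reads as library sizes (1.22 and 1.52). Adamts5 was still lower with DOX under all 3 (-3.05, -1.15 and -3.15). Mmp14 was higher under quantile normalization (0.59) and summed reads (0.60), but was not called under TPM (0.18, adjusted p = 0.238), nor was Mmp2 (0.21, adjusted p = 0.535), which also missed the call with summed reads (0.77, adjusted p = 0.0852). Plau with DOX against Unt was at -0.30 under TPM (adjusted p = 0.477) and 0.09 with summed reads (adjusted p = 0.916), neither called, and was called higher under quantile normalization (1.15, adjusted p = 0.0357). Timp3 was called lower with DOX under TPM (-1.24) and summed reads (-1.0), and higher under quantile normalization (0.39). Adamts1, not called in the main fit, was called lower with DOX under TPM.

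For D_MgHCF against DOX, the lower Timp1 was called under each of these scalings (-1.07 with TPM, -1.06 with quantile normalization, -1.32 with summed reads). Timp2 was lower with summed reads (-0.47, adjusted p = 0.000707), was not called under TPM (-0.22, adjusted p = 0.0509) and changed sign without a call under quantile normalization (0.18, adjusted p = 0.161). Mmp14 turned: it was called higher under TPM (0.36, adjusted p = 0.0164), and its values of 0.15 under quantile normalization and 0.11 with summed reads were not called. Timp3 was higher under TPM (1.81) and summed reads (1.78), and not called under quantile normalization (0.28, adjusted p = 0.0908). Adamts5 was higher under TPM (2.28) and summed reads (2.48), and not called under quantile normalization (0.76, adjusted p = 0.0665). Mmp2 was called higher under TPM (0.93) and lower under quantile normalization (-0.39, adjusted p = 0.0267), so its direction depended on the scaling. Adamts1 and Plau, not called in the main fit, were called higher under TPM and summed reads, and not under quantile normalization.

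**Figure D4:**
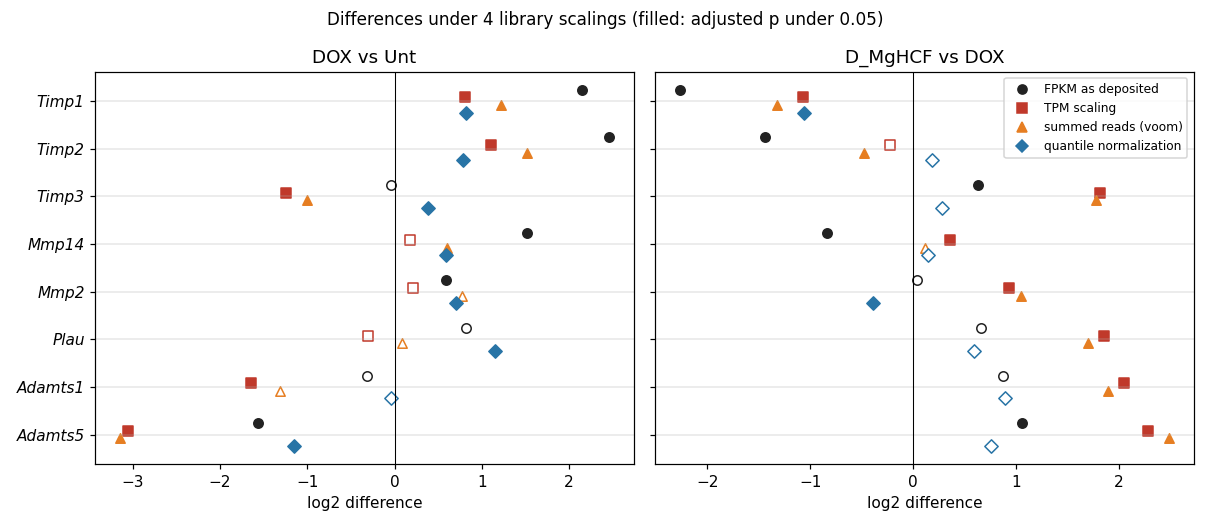
Log2 difference of 8 members (horizontal axis) under the deposited FPKM scaling, TPM, summed reads and quantile normalization, for DOX against Unt and D_MgHCF against DOX; filled symbols passed an adjusted p of 0.05. Timp1 stays on one side of 0 with filled symbols in both panels (0.80 to 2.15 and -2.27 to -1.06), whereas Mmp14 against DOX runs from -0.84 to 0.36.

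Ratios of members within a library stay the same when the whole library is multiplied by a factor, as between FPKM and TPM. Quantile normalization is not such a factor and changes them: under it Mmp14 and Timp2 differed by 0.59 and 0.79 with DOX against Unt, and by 0.15 and 0.18 with D_MgHCF against DOX. The ratio of Mmp14 to Timp2 FPKM was 0.250 ± 0.008 in Unt (SD, n = 3), 0.132 ± 0.002 in DOX, 0.133 ± 0.003 in D_DXZ and 0.200 ± 0.033 in D_MgHCF. DOX and D_DXZ overlapped, and both lay below every Unt and D_MgHCF library. The ratio of Mmp14 to Timp1 was 0.579 ± 0.032 in Unt, 0.375 ± 0.016 in DOX, 0.429 ± 0.011 in D_DXZ and 1.02 ± 0.14 in D_MgHCF, with no overlap between any of the groups. On the FPKM scale, transcripts of the membrane protease thus stood lower relative to both inhibitors with DOX, and higher relative to Timp1 with D_MgHCF than in any other group. Genes in the band of Mmp14 (10 to 100 FPKM) and in that of both inhibitors (100 or more) also moved apart. Their median log2 differences were 0.75 and 1.80 with DOX against Unt, and -0.85 and -1.65 with D_MgHCF against DOX. The part of gene level in these ratios was not tested. With 3 libraries against 3 an exact permutation test of such a ratio cannot go below p = 0.1, and none is given.

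The ratio of Timp1 to Timp2 was 0.433 ± 0.020 in Unt, 0.352 ± 0.012 in DOX, 0.310 ± 0.012 in D_DXZ and 0.198 ± 0.039 in D_MgHCF, again without overlap. The ratio of Adamts1 to Adamts5 was 1.38 ± 0.18 in Unt and 4.91 ± 0.29 in DOX. It was 3.63 ± 0.94 in D_DXZ and 3.38 ± 1.12 in D_MgHCF, where D_MgHCF replicate 3 had 2.10 and still exceeded every Unt library.

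**Figure D5:**
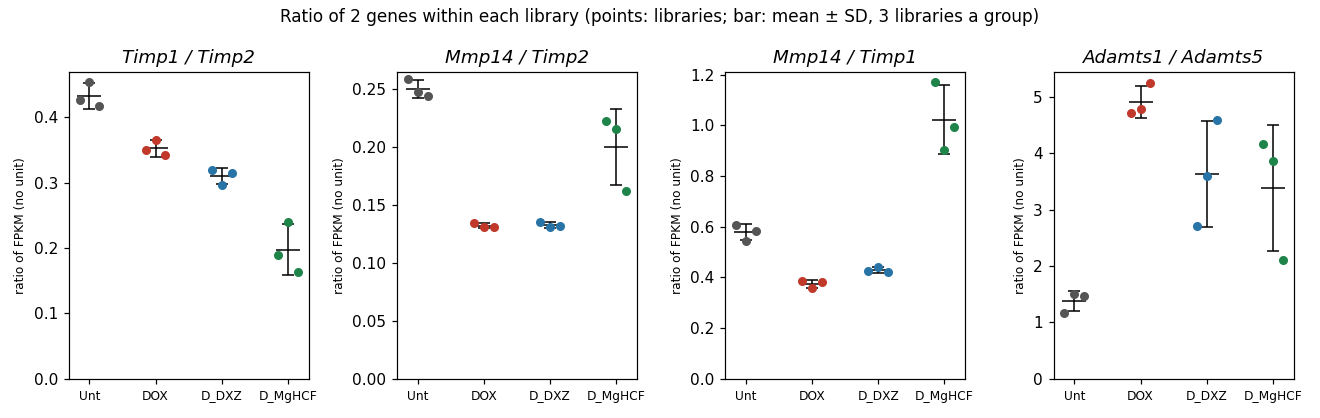
Ratio of the FPKM of a pair of genes within each library (vertical axis from 0, no unit), with the mean ± SD of 3 libraries per group. Mmp14 to Timp1 averages 1.02 in D_MgHCF against 0.375 in DOX, and Adamts1 to Adamts5 averages 4.91 in DOX against 1.38 in Unt.

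A wider list held 66 other metalloproteases, ADAMTS and ADAM proteases, plasminogen system genes, activators and inhibitors. For 4 of them no library held a read, 33 stayed under 1 FPKM in every library, and 54 were tested. With DOX against Unt, 22 were higher and 1 lower (40.7% and 1.85% of the list, beside 18.6% and 19.9% of all genes tested), and the list's median log2 difference was 0.16 beside 0 over all genes tested. Under TPM 10 were higher and 9 lower, with 4.44% and 40.8% of all genes. Under quantile normalization 22 were higher and 0 lower, with 16.7% and 17.3% of all genes. ADAM sheddases, which cut membrane proteins at the cell surface, were higher in 6 of 8 tested and ADAMTS proteases in 5 of 15, beside 18.6% of all genes. Most of these 6 sheddases averaged 10 to 100 FPKM over the libraries, a level at which 60.4% of all genes were called higher with DOX. Of the 12 metalloproteases tested 8 averaged under 1 FPKM over the libraries, a level at which 3.15% of all genes were called higher and 8.37% lower. Of the 12, 1 was higher, Mmp16 (2.78 to 7.19 FPKM), and 1 lower, Mmp28 (4.98 to 2.54). Among the higher, the mean of Plat, the tissue plasminogen activator, went from 5.72 to 33.9 FPKM (log2 difference 2.38, adjusted p = 2.98e-05). Others were Adam9 (36.2 to 158 FPKM, 2.09, but 0.86 and not called under quantile normalization), Bsg, the metalloprotease inducer basigin (355 to 1385 FPKM, 1.95, but -0.03 and not called under quantile normalization) and the procollagen-processing Adamts2 (6.93 to 29.3 FPKM, 1.93).

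With D_MgHCF against DOX, 15 of the 54 were higher and 18 lower (27.8% and 33.3%, beside 31.4% and 20.1% of all genes), and the median was 0.01 beside 0.07 over all genes tested. TPM turned the split to 29 higher and 6 lower. Among the lower were Prss23, a secreted serine protease (39.8 to 7.51 FPKM, log2 difference -2.27, adjusted p = 4.44e-06), Adam9 (158 to 39.0, -2.09), the sheddase Adam17 (30.6 to 8.33, -1.81), the secreted protease Htra1 (224 to 74.8, -1.62, but -0.28 and not called under quantile normalization) and the membrane metalloprotease Mmp16 (7.19 to 1.89, -1.56). Of the 12 metalloproteases 5 were higher and 1 lower, and 4 of these 5 averaged under 1 FPKM over the libraries, a level at which 29.6% of all genes were called higher. Against D_DXZ, 18 were higher and 16 lower, beside 29.4% and 19.0% of all genes, led by the secreted metalloprotease Mmp28 (1.70 to 9.39 FPKM, log2 difference 1.94, adjusted p = 5.55e-06), Adam9 (-1.93) and Adam17 (-1.76). D_DXZ against DOX called 0 of the 54, with 6 lower and 0 higher at an unadjusted p under 0.05. With D_MgHCF against Unt, 24 were higher and 1 lower (Adamts6, 1.47 to 0.684 FPKM, log2 difference -0.55), beside 24.3% and 15.7% of all genes. The higher included 7 of 12 metalloproteases, 6 of them under 1 FPKM, where 25.9% of all genes were called higher. With D_DXZ against Unt, 23 were higher and 1 lower (Mmp28, 4.98 to 1.70 FPKM, log2 difference -1.15), beside 15.9% and 18.0%. Under TPM 9 were higher and 9 lower with D_DXZ against Unt, beside 3.65% and 40.3% of all genes. TPM called 30 higher and 5 lower with D_MgHCF against D_DXZ (51.1% and 6.2% of all genes). It called 28 and 4 with D_MgHCF against Unt (26.6% and 19.2%).

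Among the 6883 genes with a mean of at least 5 FPKM, those whose pattern over the 12 libraries lay closest to Timp2 were Ecm1, Calr and Nptxr. Their root mean square differences from Timp2, after centring each gene on the log2(FPKM + 1) scale, were 0.05, 0.07 and 0.08. Ecm1, a matrix glycoprotein, averaged 207 FPKM in Unt, 1128 in DOX, 943 in D_DXZ and 397 in D_MgHCF. Closest to Adamts5, the protease member with the widest range of group means, were Usp1, Senp6 and Ccnb1 (0.22, 0.24 and 0.24). Ccnb1, which encodes cyclin B1, averaged 37.9 FPKM in Unt, 12.2 in DOX, 15 in D_DXZ and 36.2 in D_MgHCF.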

How the data were processed

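Poly(A) RNA of 12 libraries (NEBNext Ultra, 150 bp paired-end) was sequenced. The authors aligned reads with HISAT2 2.0.5 to GRCm38 (mm10), per the labels, and deposited FPKM per gene. The counting tool, annotation release and drug doses of the sequenced cells are not given in the sources used here. FPKM times gene length was a whole multiple of 1 value per library for 100% of entries (tolerance 0.05 reads), which gave the reads. The deposited FPKM carry a median-ratio scaling, not the summed reads.

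The main test was limma 3.58.1 in R 4.3.3 (trend) on log2(FPKM + 1) over all 12 libraries without covariates (8 residual degrees of freedom), for 25044 genes above 0 in at least 3 libraries. Genes were called at a Benjamini-Hochberg adjusted p under 0.05 over all of them. It was tested on simulated data. Near-identical transcripts were sought with BLAST 2.17.0 (at least 95% identity over 150 bases).

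All members were named in each comparison. Of the wider list, the 5 genes with the largest absolute difference among those called, not overlapping and at 1 FPKM or more in the higher group were named for DOX against Unt and D_MgHCF against DOX, and 3 for the other comparisons of treated groups. A gene that this rule names is not reported here. The 3 genes most like a member were sought for the protease and the inhibitor with the widest range of group means. Members and lists were chosen with earlier results of these data known. Level bands, ratios, voom and the naming of other genes were chosen after seeing the data. Alternatives covered the pseudocount, filters, call rules, scaling, groups in the fit, a replicate block and leaving out each library.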

Additional observations from a re-analysis of the deposited data

How the results depend on the processing

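Of the members tested, 5 were called in DOX against Unt and leaving out a library gave 5 to 6. Across the same fits D_DXZ against Unt gave 4 to 7 calls, D_MgHCF against Unt 4 to 6, D_MgHCF against DOX 4 to 7 and D_MgHCF against D_DXZ 3 to 7. A fold minimum of 2 left 2 members in D_MgHCF against Unt, 3 in D_MgHCF against DOX and 2 in D_MgHCF against D_DXZ. It left 14, 13, 4, 12 and 10 genes of the wider list in DOX against Unt, D_DXZ against Unt, D_MgHCF against Unt, D_MgHCF against DOX and D_MgHCF against D_DXZ. No share of all genes is given beside the counts for this minimum or for leaving out a library. These counts therefore compare settings only. Unadjusted p-values called 3 members and 6 genes of the wider list in D_DXZ against DOX, where 0 were called after adjustment by limma. Quantile normalization left 2 members in D_MgHCF against DOX and 2 against D_DXZ, and 20 genes of the wider list against DOX. A fit on the groups compared alone called 3 members in D_MgHCF against D_DXZ. Over all genes it called 4326 higher and 3788 lower there, where the main fit called 7358 and 4757. It called 16 genes of the wider list in D_MgHCF against Unt, where the filter of 1 FPKM also gave 16, testing fewer genes. Over all genes the fit on these groups alone called 3349 higher and 2869 lower, in place of 6096 and 3941.

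Among the differences that changed sign with scaling were the following. Under TPM Mmp14 was at 0.36 against DOX and 0.42 against D_DXZ with D_MgHCF, and Mmp2 at -0.087 with D_DXZ against Unt. Plau, not called either way, was at -0.30 with DOX and -0.079 with D_DXZ against Unt. Under quantile normalization Mmp14 was at 0.15 and 0.15, Timp2 at 0.18 and 0.15, Mmp2 at -0.39 against DOX, Timp3 at 0.39 with DOX and 0.025 with D_DXZ against Unt, and Bsg at -0.028 with DOX. With summed reads Mmp14 was at 0.11 and 0.16. Beyond the scalings themselves, the cause was not tested. The replicate numbers showed no pairing shared by all groups (18 pairs, correlation of deviations -0.31 to 0.31, 2 over 0.1). Both pairs over 0.1 were between DOX and D_DXZ, at 0.31 for replicate 1 and 0.22 for replicate 3. A replicate block over all groups gave 5 calls of members in DOX against Unt and 4 in D_DXZ against Unt. It called 0 of all genes in D_DXZ against DOX. The count models planned on whole reads were not run on a table without counts, and voom took their place. Depth limits Mmp2 and Mmp3, and 3 libraries per group limit Adamts1, Adamts5 and Plau with D_MgHCF.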

Other observations

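Genes for the matrix proteins that these proteases act on were read from a list of 16, of which 15 were tested. With DOX against Unt 12 were higher and 0 lower, with a median log2 difference of 1.46 beside 0 over all genes tested by limma, of which 18.6% were higher and 19.9% lower. These counts hold for the deposited FPKM scaling. TPM called 4 higher and 0 lower (median 0.19), beside 4.44% and 40.8% of all genes. Summed reads as library sizes called 9 and 0 (8.42% and 35.1% of all genes), and quantile normalization 9 and 1 (16.7% and 17.3%). Sparc, a collagen-binding matrix protein, averaged 280 FPKM in Unt and 1414 in DOX (log2 difference 2.32, adjusted p = 6.69e-05), and Fn1, fibronectin, 225 and 549 (1.28, adjusted p = 0.00194). The proteoglycan genes Vcan, a substrate of ADAMTS1 and ADAMTS5 (3.29 and 10.7 FPKM, 1.45, adjusted p = 0.000185), and Bgn (1.94 and 11.1 FPKM, 2.04, adjusted p = 3.89e-05) were higher too. Acan, encoding aggrecan, averaged 0.00348 FPKM in DOX and was listed at 0 in Unt.

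With D_MgHCF against DOX 12 of the 15 were lower and 0 higher, with a median of -1.34, beside 31.4% of all genes higher and 20.1% lower. TPM called 5 lower and 2 higher (median -0.16), beside 6.75% and 53.9% of all genes. Summed reads called 7 and 1 (9.52% and 51.2% of all genes), and quantile normalization 6 and 0 (19.6% and 18.5%). Tnc, tenascin C, averaged 9.09 FPKM in DOX and 1.87 in D_MgHCF (log2 difference -1.81, adjusted p = 9.22e-06), and Nid1, a basement membrane linker, 174 and 57.6 (-1.64, adjusted p = 0.000203). Against Unt, D_MgHCF called 1 higher (Vcan, log2 difference 0.67, adjusted p = 0.0229) and 0 lower, beside 24.3% and 15.7% of all genes, and D_DXZ called 10 higher and 0 lower, beside 15.9% and 18.0%. Under TPM these counts were 3 and 1, and 4 and 0. D_DXZ against DOX called 0 by limma, and 0 at an unadjusted p under 0.05. D_MgHCF against D_DXZ called 10 lower and 0 higher, beside 19.0% and 29.4% of all genes, and 5 lower and 2 higher under TPM. Of the 16 genes listed 8 averaged 10 FPKM or more over the libraries, a level at which genes in general were higher with DOX and lower with D_MgHCF than with DOX.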
